A study of Arabidopsis thaliana with 64 samples.

Results

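The genes described here are 150 genes of Arabidopsis thaliana leaves whose change under fixed-carbon starvation was highest in the autophagy mutant atg7-2 relative to wild type (WT). They were chosen by measured values. For each gene the difference D was the starvation-minus-control change in atg7-2 less the same change in WT, in mean log2(RPM + 0.5), where RPM is the authors' name for reads scaled to library size. A gene entered when 2 or more libraries reached 1 RPM (19824 of 28775 genes in the table), both starved atg7-2 libraries had to reach 5 RPM, 4 genes were omitted by the rule, which left 10845 genes, and the 150 with the highest D were taken. D ran from 3.11 to 6.52 among the 150, with a median of 3.51, while the median over all genes tested was -0.29. The last members in the order, CYP709B2 and AT2G03140, had D of 3.1128 and 3.1121, and the next genes, ARF19 and AT5G37840, had 3.1061 and 3.1021. Because D, and every comparison among the atg7-2 and WT control and starvation libraries, chose the members, those values are descriptions and carry no test.

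RNA-seq libraries were made from leaves of 4-week-old plants grown with 16 h of light a day. The groups used here are atg7-2, DSK2 RNAi, bes1-D, bri1-301 and WT, each after 5 days of fixed-carbon starvation (2 libraries), after 4 h of dehydration (3 libraries) and as untreated controls (3 libraries), 40 libraries in all. atg7-2 is a mutant of ATG7, the activating enzyme for ATG8 in autophagy. DSK2 RNAi is a knockdown of the ubiquitin receptors DSK2A and DSK2B, bes1-D a gain-of-function line of the brassinosteroid-responsive transcription factor BES1, and bri1-301 a weak allele of the brassinosteroid receptor BRI1. The labels give no background ecotype, and no number of plants pooled, and they do not state whether replicates are separate plants. The p-values therefore cover only the spread among these libraries, which may be technical.

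Autophagy encloses cytoplasm in a double membrane and delivers it to the vacuole, where its protein, lipid and organelles are broken down and reused. ATG7 activates ATG8 so that it can be joined to membrane lipid, and mutants without this step starve and senesce early when plants are kept from fixing carbon. Carbon-starved leaves draw on starch, then on amino acids and membrane lipid, while photosynthesis genes fall.

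DSK2A averaged 9.85 ± 0.485 RPM in starved DSK2 RNAi leaves and 56.4 ± 4.56 RPM in starved WT leaves (SD, n = 2 each), and DSK2B averaged 155 ± 43.7 and 215 ± 7.08 RPM in the same groups. In controls DSK2B averaged 14.8 ± 0.859 RPM in DSK2 RNAi and 133 ± 2.38 RPM in WT (SD, n = 3 each). So DSK2A was far below WT in the starved DSK2 RNAi libraries, whereas DSK2B was far below WT in controls and not clearly so in the starved libraries. ATG7 reads were not lower in the mutant, with 77.8 ± 5.03 RPM in starved atg7-2 leaves and 43.0 ± 13.7 RPM in starved WT leaves (SD, n = 2 each). A read count over the whole gene does not check an allele that still makes RNA, and the same holds for bri1-301 and bes1-D. Photosynthetic markers of leaf mesophyll were present, with the 5 genes summing to 744.5 to 1039 RPM in starved atg7-2 leaves and 2070 to 2273 RPM in starved WT leaves, against 31300 to 37240 RPM in atg7-2 controls and 37010 to 47930 RPM in WT controls. Depth was 26634819 to 30375860 reads a library, and 3 reads in a library correspond to 0.101 to 0.114 RPM.

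Libraries differed in how the level of a gene depended on the length of its transcript, and this bears on the members. For each library the deviation of every gene from its mean over the 40 libraries was regressed on log2 transcript length, so that a slope of 0.4 means 0.4 log2 units more per doubling of length. The starved libraries lay at both ends. The slopes were 0.376 and 0.460 in starved atg7-2, 0.181 and 0.347 in starved DSK2 RNAi, -0.506 and -0.929 in starved bes1-D, and -0.481 and -0.302 in starved WT. The 2 starved bri1-301 libraries had opposite slopes, -0.439 in replicate 1 and 0.437 in replicate 2. Outside starvation the steepest were replicate 3 of dehydrated WT (-0.568), of dehydrated bes1-D (-0.501) and of control bes1-D (-0.418). The labels give no extraction or sequencing batch. The starvation libraries carry sample numbers 55 to 64 and the other libraries numbers up to 54, so any step that followed this order cannot be told apart from starvation. Results below are given with this in view, and counts were recomputed after removal of the length trend from each library and without each library in turn.

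**Figure D1:**
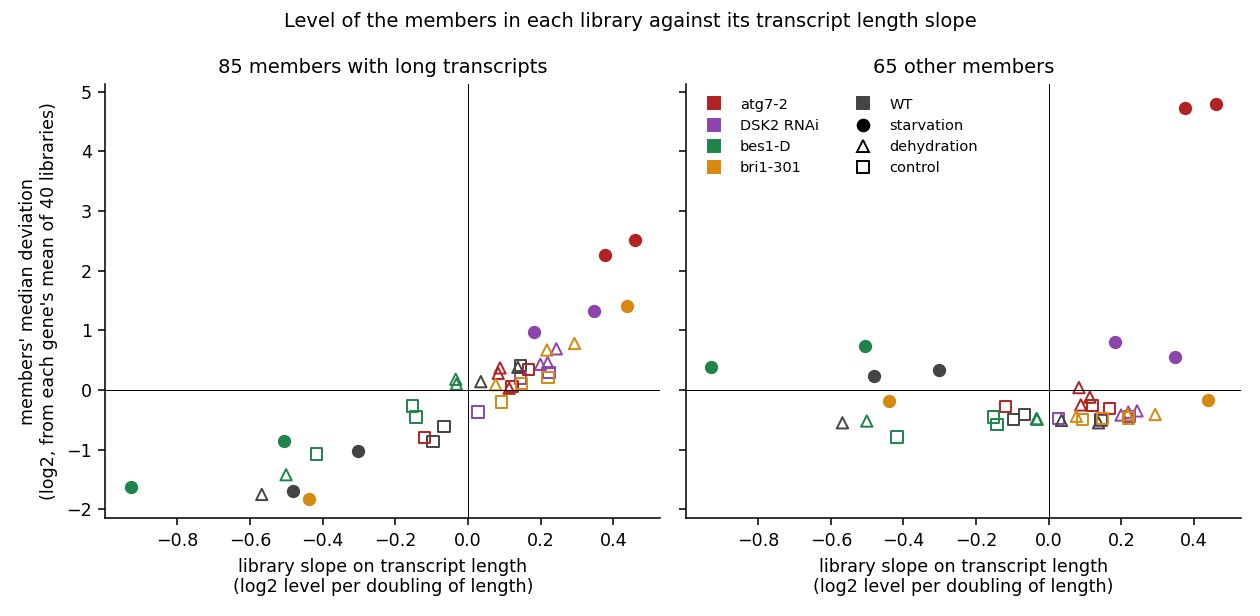
Median deviation of the members in each of the 40 libraries (log2, from each gene's mean over all libraries) against the library's slope on transcript length (log2 level per doubling), for the 85 members with long transcripts at left and the 65 other members at right; colours are genotypes, filled circles starvation, open triangles dehydration and open squares control. The long members run with the slope across all treatments, up to 2.26 and 2.52 in starved atg7-2, where the rule favours high values. Starved bri1-301 replicate 2, with a slope of 0.437, has 1.40. Long genes outside the members have 0.29 and 0.49 in starved atg7-2 and 0.93 in that bri1-301 library. The 65 other members stand at 4.72 and 4.79 in the 2 starved atg7-2 libraries and between -0.79 and 0.80 in the other 38.

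Transcript length, which the rule did not use, set most members apart. The longest annotated transcript of a member had a median of 3750 bases, against 1713 bases over the genes tested. Of the 150 members 85 were longer than 3102 bases, the 90th percentile of genes tested, which is 56.7% of members against 10.0% of genes tested and 12.7% of the genes that reached 5 RPM in both starved atg7-2 libraries. These 85 are called the long members below and the others the 65 shorter members. Their median lengths were 4856 and 1668 bases, and their median exon numbers 13 and 3, against 4 exons over genes tested. GC content was similar, at a median of 42.1% in long members, 40.8% in shorter members and 41.3% over genes tested. Across the 10792 eligible genes with a length, D and length had a Spearman's rho of 0.59, a description over genes that share the same 10 libraries.

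The long members and the shorter members behaved differently in the groups that chose them. The long members were lower in starved WT leaves than in WT controls in 78 of 85 cases, with a median change of -1.02 on the log2 scale, and higher in starved atg7-2 leaves than in atg7-2 controls in 84 of 85 cases, with a median change of 2.40. The 65 shorter members were mostly higher in both, with a median change of 4.93 in atg7-2 and 0.73 in WT, and 53 of 65 were higher in starved WT leaves. These values come from the libraries that chose the members, and the larger change in atg7-2 is the choice itself. Of all 150 members, 145 were over 2-fold higher in starved than in control atg7-2 leaves (17.3% of genes tested were), 30 were over 2-fold higher in starved than in control WT leaves (16.1%) and 51 over 2-fold lower (28%). Both starved atg7-2 libraries exceeded the other 38 libraries in 136 of 150 members, as in 8.7% of genes tested, and the rule favours this pattern. In bulk leaves a change in the RNA of each cell and a change in the share of cells that hold it cannot be told apart.

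**Figure D2:**
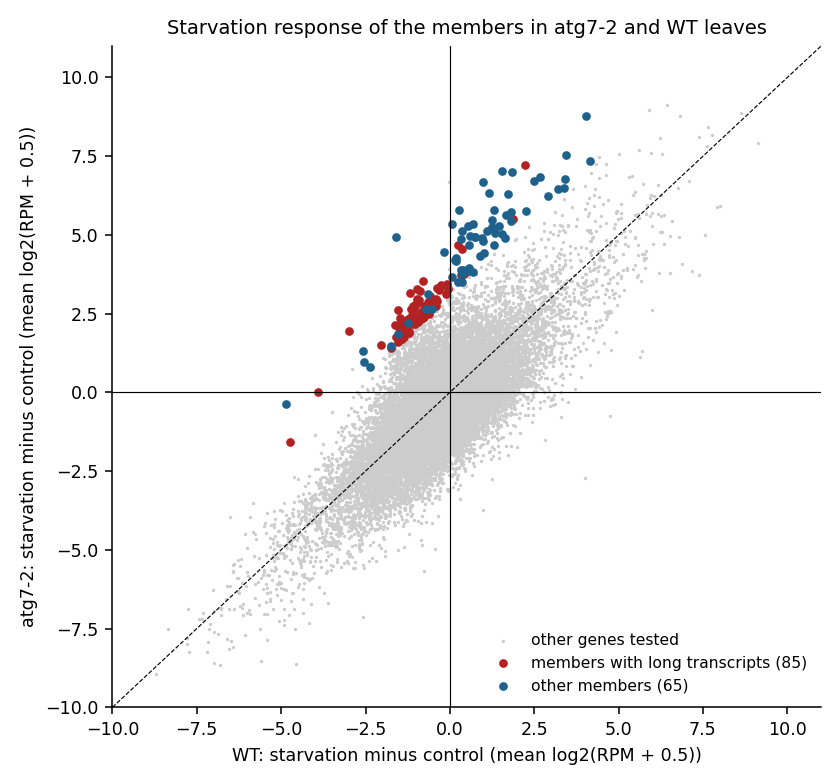
Starvation-minus-control change in atg7-2 (vertical) against WT (horizontal), both in mean log2(RPM + 0.5), for the genes tested (grey), the long members (red) and the shorter members (blue); the dashed line marks equal change. The red points gather left of the vertical zero line, where starved WT leaves were lower than controls, and most blue points lie to the right of it and higher.

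With the length trend removed from every library, D was recomputed and the 150 highest taken again. All 65 shorter members remained among them, and 11 of the 85 long members did, so that 76 of 150 were shared. The median D of the shorter members was then 4.18, and that of the long members 1.85. Of the long members 62 still had a D over 1 and 9 had a D below 0. These 9 were the longest members, of 9735 to 15700 bases, far above the 90th percentile of 3102 bases. How well the fitted trend holds at such lengths was not tested. The lowest was -2.42, in BIG, a very large protein needed for auxin transport and the longest member at 15700 bases. The 11 long members that remained include ABCG31, LOX5, IMK2 and HMA5.

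The members highest in the order by D differed in how much RNA they had in leaves outside starvation. AGP14, an arabinogalactan protein of the cell wall, had the highest D (6.52). It had 114 and 103 RPM in the 2 starved atg7-2 libraries, against 0.640 and 0.689 RPM in starved WT leaves, and 3.32, 2.21 and 3.98 RPM in atg7-2 controls, against 3.81, 2.22 and 3.27 RPM in WT controls. Starved atg7-2 leaves stood alone, and starved WT leaves were below WT controls, which held a low level of this RNA. AT1G29100, annotated as a heavy metal transport or detoxification protein, had 61.1 and 87.7 RPM in starved atg7-2 leaves, against 0.370 and 0.655 RPM in starved WT leaves. AT2G40500, an annotated protein kinase, had 30.1 and 26.4 RPM against 0.101 and 0.103 RPM in the same groups, and GH9B17, of the cellulase-like glycosyl hydrolase family 9, had 20.6 and 21.3 RPM against 0 and 0.103 RPM. Neither gene passed 0.102 RPM in any control or dehydrated library, at or below the level of 3 reads. Of the shorter members 37 of 65 were under 1 RPM in all 15 control libraries, as were 3 of the 85 long members and 4.1% of genes tested.

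AT1G27110, with tetratricopeptide repeats, had 84.6 and 100 RPM in starved atg7-2 leaves, against 1.35 and 1.48 RPM in starved WT leaves. AT4G34320, a putative membrane protein, had 32.9 RPM in both starved atg7-2 libraries, against 0.673 and 0.620 RPM in starved WT leaves. AT5G10660, annotated as similar to calmodulin-binding proteins, had 27.6 and 26.8 RPM, against 0.640 and 0.172 RPM. AT2G29620, whose function is not known from its annotation, had 37.2 and 42.3 RPM, against 0.370 and 0.930 RPM. In each of these 4 the starved atg7-2 libraries lay apart from every other library.

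Genes of abscisic acid were among the members. Abscisic acid is the hormone of drought, dormancy and late senescence, and its transport between cells, its receptors and the kinases downstream are all encoded by families of genes. PYL3, an abscisic acid receptor, had 97.8 and 101 RPM in starved atg7-2 leaves, against 0.943 and 1.03 RPM in starved WT leaves. ABCG31, an exporter of abscisic acid in seeds, had 428 and 571 RPM, against 6.33 and 12.5 RPM. ABCG30, an importer of the hormone in seeds, had 33.0 and 42.3 RPM, against 1.85 and 1.93 RPM. ABCG30 is a long member and left the 150 when the length trend was removed, with a D of 2.18 against 3.92 as reported. MAPKKK17, a kinase of the abscisic acid-activated mitogen-activated protein kinase cascade, had 249 and 248 RPM, against 16.4 and 21.0 RPM. HB21, a homeobox factor that acts with abscisic acid in bud dormancy and was chosen after its values were seen, had 102 and 110 RPM, against 4.41 and 4.17 RPM. AT3G53040, a late embryogenesis abundant protein of the kind made in drying seeds, had 436 and 435 RPM, against 7.31 and 13.4 RPM. In all 6 genes both starved atg7-2 libraries were higher than both starved WT libraries, and starved WT leaves were higher than WT controls. The wider list of abscisic acid and dehydration genes did not share this: none of its 21 tested genes was a member, its median change was 1.28 in starved atg7-2 leaves and 1.92 in starved WT leaves, and only 2 of the 21 had a positive D.

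Promoters were read because several members belong to this pathway. An abscisic acid response element (ABRE, searched as ACGTGT or ACGTGG on either strand, overlaps counted) lay within the 250 bases before the annotated gene start in 38 of 150 members (25.3%), in 21 of 65 shorter members (32.3%) and in 17 of 85 long members (20.0%). The share was 17.5% over the promoters of genes tested and 14.1% over all 38092 promoters. The promoters of the 3 genes among the 15 highest D that hold an ABRE or a G box (CACGTG), and that of MAPKKK17, are shown with those letters in capitals, 5′ to 3′ on the strand of the gene, from RefSeq TAIR10.1.
AT3G53040, chr3:19666498-19666747, minus strand: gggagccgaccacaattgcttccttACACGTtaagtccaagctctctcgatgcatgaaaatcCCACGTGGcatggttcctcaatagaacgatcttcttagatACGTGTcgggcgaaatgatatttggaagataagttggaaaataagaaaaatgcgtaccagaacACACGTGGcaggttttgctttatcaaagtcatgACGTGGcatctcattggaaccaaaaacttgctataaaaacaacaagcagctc
MAPKKK17, chr2:13800100-13800349, minus strand: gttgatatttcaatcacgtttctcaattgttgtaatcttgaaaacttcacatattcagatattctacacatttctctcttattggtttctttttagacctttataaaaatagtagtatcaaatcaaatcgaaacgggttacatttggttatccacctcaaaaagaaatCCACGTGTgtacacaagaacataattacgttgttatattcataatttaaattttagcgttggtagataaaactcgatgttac
AGP14, chr5:22892901-22893150, plus strand: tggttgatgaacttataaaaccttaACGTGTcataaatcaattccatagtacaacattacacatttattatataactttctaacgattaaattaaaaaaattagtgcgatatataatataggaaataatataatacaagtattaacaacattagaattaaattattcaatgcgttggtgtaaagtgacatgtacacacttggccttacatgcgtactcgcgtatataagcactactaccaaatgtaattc
AT5G10660, chr5:3369846-3370095, plus strand: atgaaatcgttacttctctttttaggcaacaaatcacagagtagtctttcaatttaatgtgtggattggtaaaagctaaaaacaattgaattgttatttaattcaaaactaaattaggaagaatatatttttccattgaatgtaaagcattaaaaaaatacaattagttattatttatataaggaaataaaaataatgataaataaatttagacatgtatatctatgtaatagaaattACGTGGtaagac
AT3G53040 held 7 ABRE matches and 2 G boxes, whose letters overlap. MAPKKK17 held 2 ABRE matches and 1 G box, and AGP14 and AT5G10660 held 1 ABRE each and no G box. Of the other motifs, the W box (TTGACC or TTGACT), bound by WRKY factors, lay in 30.0% of members and 28.4% of genes tested, the G box in 7.3% and 7.6%, and the as-1 core (TGACG), bound by TGA factors, in 16.7% and 19.5%. The brassinosteroid response element (CGTGTG or CGTGCG), which BES1 and BZR1 bind, lay in 9.3% of members and 7.0% of genes tested and overlaps the ABRE letters in part. The GCC box (GCCGCC) lay in 2.7% and 2.0%, the evening element (AAATATCT) in 4.0% and 5.0%, and the mitochondrial dysfunction motif in 1.3% and 1.4%. A match is a string of letters and does not show that a factor binds there.

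Some members act on lipids or are proteases, a grouping made after their values were seen. LOX1, a lipoxygenase that oxidises the 9 position of polyunsaturated fatty acids, was among the 3 members with most reads in starved atg7-2 leaves (RPM is not scaled to transcript length), with 2278 and 2591 RPM, against 39.1 and 58.6 RPM in starved WT leaves. AT1G22930, annotated as a T-complex protein 11, was another, with 2308 and 2908 RPM against 79.1 and 139 RPM, but it is a long member and left the 150 when the length trend was removed. LOX5, another 9-lipoxygenase, had 17.5 and 19.2 RPM in starved atg7-2 leaves and 0 and 0.138 RPM in starved WT leaves, where it was below the WT controls (3.33, 4.57 and 4.06 RPM). MC9, a metacaspase that clears the contents of dying xylem cells, had 494 and 548 RPM against 11.3 and 18.4 RPM, and was the other. CEP2, a cysteine endopeptidase of a family that acts in dying plant cells, had 86.7 and 97.5 RPM against 1.62 and 1.48 RPM. Because MC9 is known from xylem, 9 xylem markers were summed. They came to 2.825 and 3.485 RPM in starved atg7-2 leaves and 0.909 and 1.344 RPM in starved WT leaves, against 61.5 to 77.8 RPM in atg7-2 controls and 40.6 to 81.3 RPM in WT controls. Of the 9 markers 2 were at 0 in both starved atg7-2 libraries and 3 in both starved WT libraries. The part of xylem cells in the rise of MC9 was not tested.

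A smaller set of members was near or below its control level in starved atg7-2 leaves and much lower than control in starved WT leaves. FAD3, the desaturase that makes linolenic acid in the endoplasmic reticulum, had 74.5 and 80.6 RPM in starved atg7-2 leaves, against 4.24 and 4.03 RPM in starved WT leaves, while controls had 96.8, 91.5 and 110 RPM in atg7-2, against 156, 136 and 116 RPM in WT. IMK2, a receptor-like kinase, had 6.98 and 10.9 RPM in starved atg7-2 leaves, against 0.135 and 0.586 RPM in starved WT leaves, with 10.1, 8.66 and 7.52 RPM in atg7-2 controls, against 11.3, 10.6 and 14.4 RPM in WT controls. SEX1, the glucan, water dikinase that starts starch breakdown, had 37.9 and 52.8 RPM in starved atg7-2 leaves, against 3.30 and 5.48 RPM in starved WT leaves, and 164, 189 and 77.5 RPM in atg7-2 controls, against 100, 199 and 104 RPM in WT controls. FAD3 and SEX1 were the 2 members lower in starved than in control atg7-2 leaves, by 0.35 and 1.57 on the log2 scale. With the length trend removed SEX1 fell out of the 150, whereas FAD3 and IMK2 stayed.

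**Figure D3:**
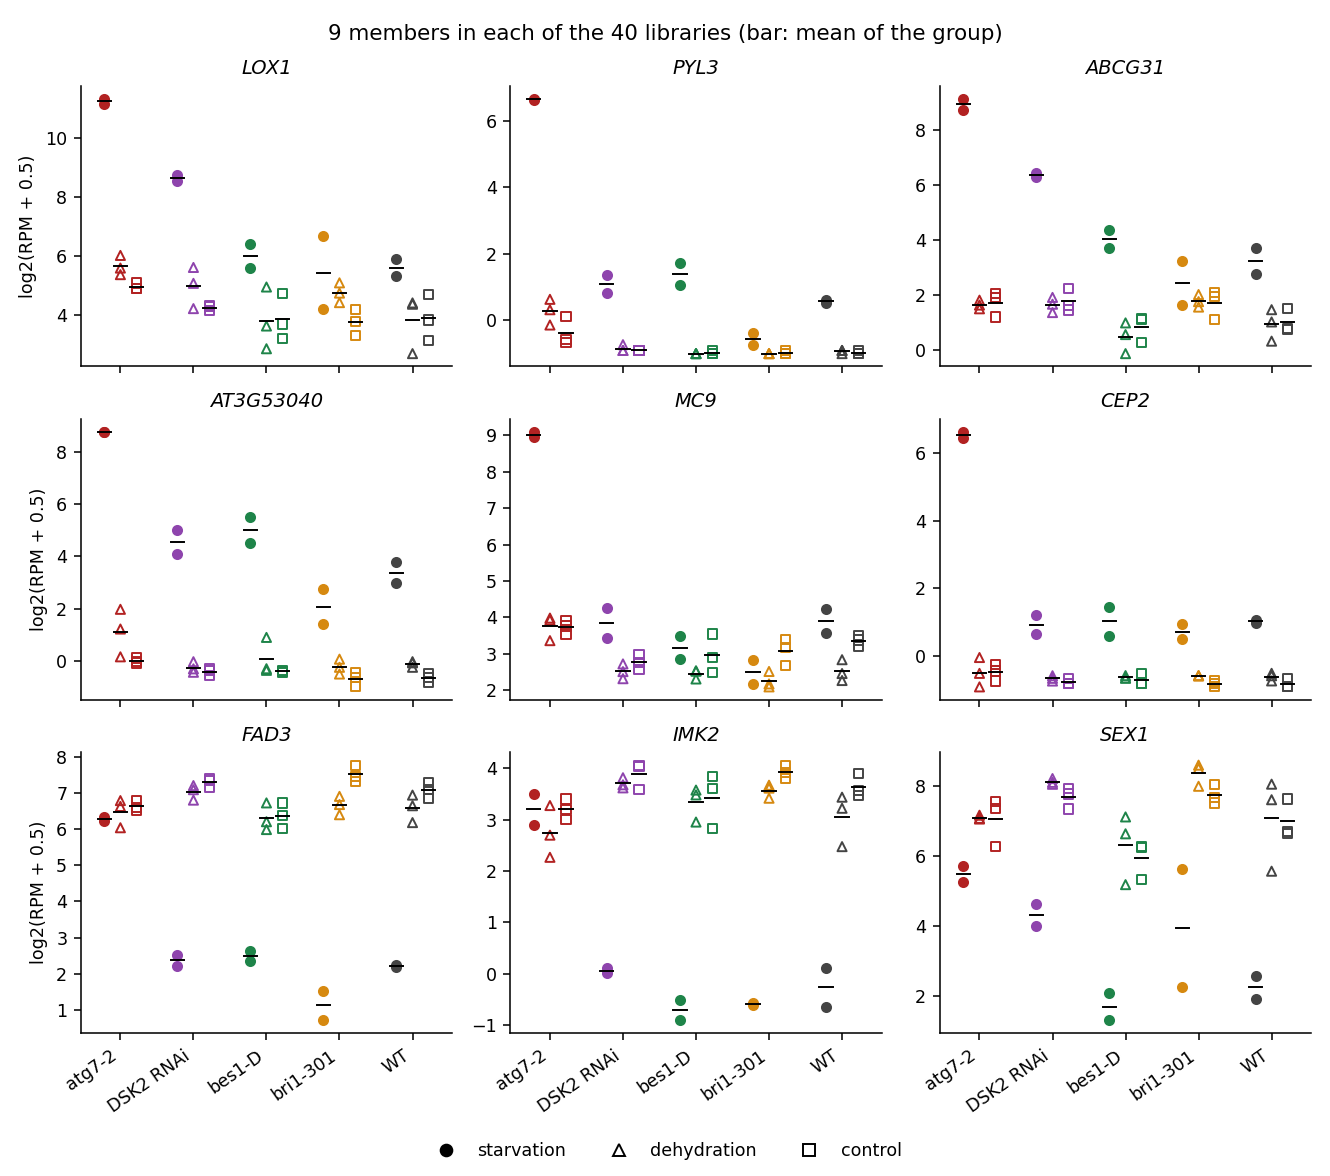
Level of 9 members, as log2(RPM + 0.5), in each of the 40 libraries, by genotype, with starvation (filled circles), dehydration (triangles) and control (squares) side by side and a bar at each group's mean. In the upper 6 panels both starved atg7-2 libraries lie above all others, and in FAD3 and IMK2 the starved atg7-2 libraries lie near the controls while starved libraries of the other 4 genotypes lie far below.

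Grouped after their values were seen, 19 of the 85 long members act in chromatin or transcription, among them the remodelling ATPases BRM, SYD, PIE1, CHR4 and CHR17, the histone methyltransferases EFS and SDG2, the silencing factor MOM and the largest subunit of RNA polymerase IV, NRPD1A. All 19 were lower in starved than in control WT leaves, with a median change of -1.20, and higher in starved than in control atg7-2 leaves, with a median change of 2.25. None of the 19 stayed among the 150 highest once the length trend was removed. BRM had 163 and 189 RPM in starved atg7-2 leaves, against 9.77 and 18.2 RPM in starved WT leaves, and in the 2 starved bri1-301 libraries, whose length slopes were opposite, it had 8.30 and 124 RPM. Dehydrated WT showed the same spread, with 72.2, 63.5 and 12.3 RPM, the last in the library with the slope of -0.568. A further 10 long members act in membrane traffic or the cytoskeleton, including the phosphoinositide kinases FAB1A, FAB1B and FAB1D, the myosins MYA1 and XIK and the autophagy protein ATG2. Of these 9 were lower in starved WT leaves and 1 stayed without the length trend. UPL1 and UPL2, ubiquitin ligases with transcripts of 11404 and 11639 bases, were also lower in starved WT leaves, and neither stayed.

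ATG2 moves lipid into the growing autophagosome. In 29 gene lists of pathways and cell types, 392 genes were both matched to the annotation and tested. ATG2 was the only member among them. It had 178 and 222 RPM in starved atg7-2 leaves, against 8.45 and 15.8 RPM in starved WT leaves, and 30.5, 36.1 and 18.7 RPM in atg7-2 controls, against 12.5, 31.8 and 13.9 RPM in WT controls. Its D of 3.43 was 1.16 with the length trend removed. The autophagy list holds 30 genes, of which 23 were matched to the annotation and tested. Over these 23 the median D was 0.04, with 12 above 0, and the median change was 0.79 in starved atg7-2 leaves and 0.45 in starved WT leaves. The tested but unmatched genes, left out of these values, mostly had a positive D: ATG1A 2.06, ATG1B 1.55, ATG1C 0.80, ATG13A 0.89, ATG13B 0.89, ATG4B 0.54 and ATG4A -0.64. The lists of sugar starvation and senescence genes, which rise in dark-kept leaves, had a median D of 0.79 and 0.07 and no member.

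Members that carry ions and other small molecules across membranes, grouped after their values were seen, numbered 9: ABCG30, ABCG31, ABCG38, ABCB9, HMA4, HMA5, MTPA2, PHO1 and SPIK. Their change in atg7-2 ran from 2.37 to 7.22, and 1 of the 9 was lower in starved WT leaves. Of the 9, 7 were long members. With the length trend removed 5 of the 9 stayed among the genes chosen, and ABCG30, ABCG38, HMA4 and SPIK did not. PHO1, the exporter of phosphate into the xylem, had 359 and 424 RPM in starved atg7-2 leaves, against 27.0 and 45.1 RPM in starved WT leaves. PS2, a pyrophosphatase that is induced when phosphate runs short, had 326 and 318 RPM, against 15.5 and 16.0 RPM, and lies next to PYL3 on chromosome 1. The other pair of members that are neighbouring protein-coding genes is AT3G24870 and AT3G24880 on chromosome 3, both annotated as helicase/SANT-associated DNA-binding proteins, and reads shared by such like genes could have been split between them. HMA5, a copper pump, had 84.4 and 96.7 RPM, against 3.17 and 5.20 RPM. Members known from reproductive organs (GEX1, SHP1, EMS1, TES and SPIK, grouped after their values were seen) changed by 1.52 to 3.82 in atg7-2 and by -2.04 to 0.69 in WT. Of these 5, 3 were long members, and 3 stayed with the length trend removed, whereas EMS1 and SPIK did not. The summed level of 8 floral organ markers was 25.5 and 29.28 RPM in starved atg7-2 leaves and 19.57 and 23.5 RPM in starved WT leaves, against 10.78 to 12.02 RPM in atg7-2 controls and 5.872 to 9.43 RPM in WT controls, and none of the 8 was at 0 throughout a group. Single markers went otherwise than the sum: over the 7 that were tested the median change was -0.86 in atg7-2 and 0.02 in WT, and 1 of the 7 had a D above 0. Their part in these values was not tested.

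DSK2 RNAi, bes1-D and bri1-301 libraries took no part in choosing the members, so starvation against control in these lines could be tested. The test was limma on log2(RPM + 0.5) over all 19824 genes, two-sided, with Benjamini-Hochberg adjustment and calls at an adjusted p under 0.05. As reported below, most members that rose in each line were shorter members, but this split depended on the processing, and it is given for each line. Because the rule asked for 5 RPM only in starved atg7-2 leaves, members could be very low elsewhere: the control mean was under 1 RPM for 50 of 150 members in DSK2 RNAi, 51 in bes1-D and 49 in bri1-301, and such genes can hardly fall. Low shares of members that fell are therefore in part set by the choice. Among all genes that reached 5 RPM in both starved atg7-2 libraries, 17.9% fell in DSK2 RNAi, 26% in bes1-D and 17.5% in bri1-301, and 36.8%, 35.9% and 30.2% rose. The change of every member was largest in atg7-2, which the rule favours.

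In starved DSK2 RNAi leaves 67 of 150 members rose (44.7%, against 24.9% of genes tested) and 8 fell (5.3%, against 36% of genes tested). The median change was 1.11, and -0.15 over genes tested. The largest rises were in AT3G53040 (31.6 and 16.3 RPM in starved leaves, against 0.307, 0.172 and 0.272 RPM in controls; log2 change 4.96 ± 0.40 SE, limma adjusted p = 6.19e-12) and ABCG31 (85.9 and 78.3 RPM, against 2.25, 2.57 and 4.21 RPM; 4.59 ± 0.42, adjusted p = 6.81e-11). The largest falls were in FAD3 (4.15 and 5.27 RPM, against 169, 161 and 141 RPM; -4.93 ± 0.26, adjusted p = 2.60e-16) and IMK2 (0.573 and 0.503 RPM, against 11.4, 16.1 and 15.9 RPM; -3.83 ± 0.30, adjusted p = 3.19e-12). None of these groups overlapped. Of the shorter members 44 of 65 rose and of the long members 23 of 85. The number that rose was 103 by DESeq2 on recovered reads, 112 in a fit of the 5 DSK2 RNAi libraries alone and 119 with the length trend removed. Long members were 51 of the 103, 68 of the 112 and 63 of the 119. With the length trend removed the shares of genes tested moved as well, to 36.8% that rose and 33.1% that fell.

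Starved bes1-D leaves had 48 members that rose (32.0%, against 26.1% of genes tested) and 15 that fell (10.0%, against 39.9%). The median change was -0.15, and -0.34 over genes tested. Of the shorter members 42 of 65 rose and of the long members 6 of 85, with medians of 1.28 and -0.62. With the length trend removed the gap was much smaller, as 49 of 65 shorter and 51 of 85 long members rose. PS2 rose most (54.3 and 39.7 RPM in starved leaves, against 0.479, 0.786 and 0.334 RPM in controls; log2 change 5.53 ± 0.36 SE, limma adjusted p = 3.90e-14), followed by AT3G53040 (44.8 and 22.1 RPM, against 0.274, 0.239 and 0.259 RPM; 5.40 ± 0.40, adjusted p = 7.14e-13). SEX1 fell most (3.71 and 1.98 RPM, against 77.8, 75.5 and 39.6 RPM; -4.26 ± 0.65, adjusted p = 1.16e-06), followed by IMK2 (0.202 and 0.0341 RPM, against 11.7, 13.8 and 6.60 RPM; -4.13 ± 0.30, adjusted p = 4.61e-13). With the length trend removed 100 members rose in all and 9 fell, and of genes tested 35.8% rose and 34.4% fell. The number that fell was 27 in a fit of the 5 bes1-D libraries alone, 9 without control replicate 2 and 9 without starvation replicate 2, whose length slope was -0.929.

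In starved bri1-301 leaves 25 members rose (16.7%, against 21.8% of genes tested) and 15 fell (10.0%, against 32.3%), with a median change of 0.01 and -0.16 over genes tested. The 2 starved libraries gave opposite pictures. Without replicate 1, whose slope was -0.439, 61 members rose and 9 fell, with a median change of 1.25. Without replicate 2, whose slope was 0.437, 24 rose and 73 fell, with a median change of -1.33. Among the long members 39 rose and 3 fell without replicate 1, and 1 rose and 63 fell without replicate 2. With the length trend removed 65 rose, 31 of them long, and 15 fell, and of genes tested 34.7% rose and 29.6% fell. By edgeR and DESeq2 on recovered reads 38 and 40 members rose. CDG1, a kinase that acts between BRI1 and its downstream phosphatase, rose most, with 4.49 and 5.20 RPM in starved leaves and 0 in all 3 controls. It was at least 47.3-fold higher than a floor of 3 reads in a control library, and its log2 change of 3.42 ± 0.17 (SE, limma adjusted p = 7.42e-17) depends on the added 0.5. It was followed by AT3G53040 (2.13 and 6.19 RPM, against 0.136, 0.237 and 0 RPM; 2.77 ± 0.40, adjusted p = 8.50e-07). FAD3 fell most (2.40 and 1.14 RPM, against 177, 160 and 218 RPM; -6.40 ± 0.26, adjusted p = 8.16e-19), followed by IMK2 (0.169 and 0.152 RPM, against 14.6, 13.4 and 16.2 RPM; -4.52 ± 0.30, adjusted p = 1.08e-13). These 4 calls held in all 15 alternative fits.

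Across the 3 lines, 24 members rose in every one (16.0%, against 15.2% of genes tested and 22.7% of the genes at 5 RPM in both starved atg7-2 libraries), so this share was near that of genes in general. Of the 24, 22 were shorter members. They include LOX1, CEP2, PS2, PHO1, HB21, MAPKKK17, NAC074 and CDG1. The 8 members that fell in every one (5.3%, against 25.8% of genes tested and 11.5% of those at 5 RPM) were FAD3, IMK2, SEX1, LOX5, AGP14, DMP2, MRH1 and AT2G40820. No call was made in any of the 3 lines for 60 members (40.0%, against 18.8% and 22%), 53 of them long. The part of long members in these counts depended on the processing. As reported 23, 6 and 3 long members rose in DSK2 RNAi, bes1-D and bri1-301, and 63, 51 and 31 with the length trend removed. For comparison, of the 23 autophagy genes matched to the annotation and tested, 8 rose in starved DSK2 RNAi leaves, 17 in bes1-D and 5 in bri1-301, and 2, 1 and 1 fell.

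**Figure D4:**
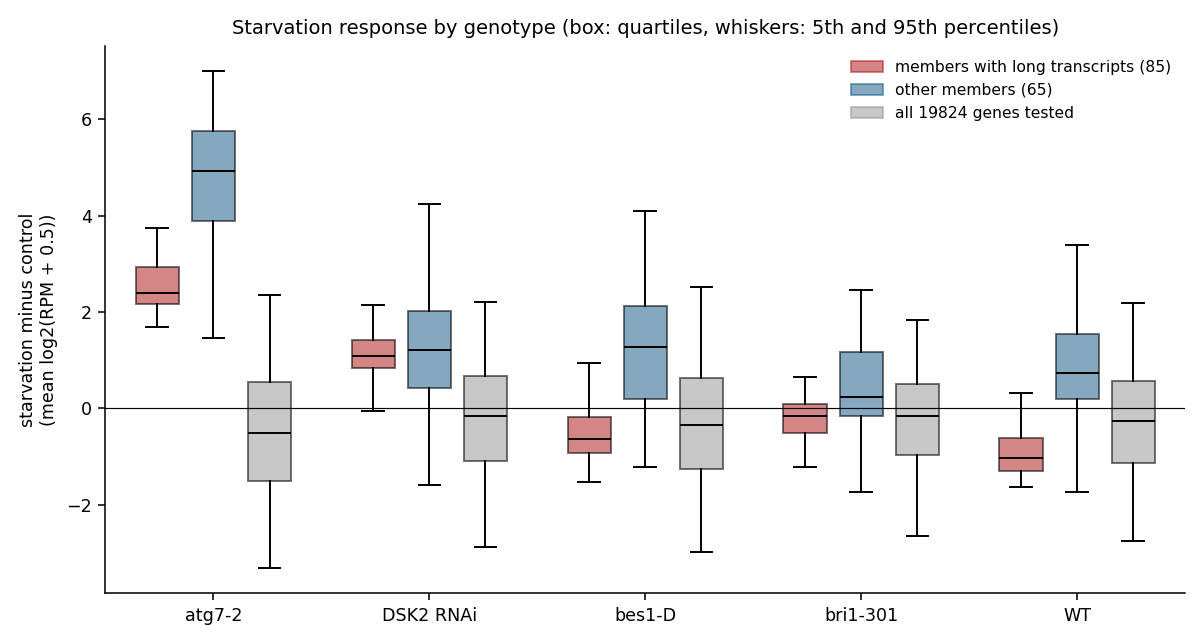
Starvation-minus-control change, in mean log2(RPM + 0.5), of the 85 long members (red), the 65 shorter members (blue) and all genes tested (grey) in each genotype; boxes are quartiles with the median, whiskers the 5th and 95th percentiles. The shorter members have medians of 4.93 in atg7-2, 1.22 in DSK2 RNAi, 1.28 in bes1-D, 0.25 in bri1-301 and 0.73 in WT, and the long members 2.40, 1.09, -0.62, -0.15 and -1.02.

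By the mean of log2(RPM + 0.5) in starved leaves, the second-highest group after atg7-2 was DSK2 RNAi in 114 members, bes1-D in 26 and WT in 10. Among long members DSK2 RNAi came second in 84 of 85. The length slopes of its starved libraries were 0.181 and 0.347, those of starved WT and bes1-D lay between -0.302 and -0.929, and those of bri1-301 were opposite. The part of transcript length in this order was not tested. Among shorter members DSK2 RNAi came second in 30, bes1-D in 25 and WT in 10, and bri1-301 was lowest in 46 of 65. The median level of shorter members, as log2(RPM + 0.5), was 4.93 in starved atg7-2 leaves, 1.22 in DSK2 RNAi, 1.09 in bes1-D, 0.24 in bri1-301 and 0.64 in WT.

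The differences in starvation change between the 3 lines were tested in comparisons added after the data were seen. Their shares are set against all genes tested, not against the genes at 5 RPM in both starved atg7-2 libraries. Many members were under 1 RPM in the controls of these lines, as given above, and could hardly fall in either line. Between DSK2 RNAi and bes1-D, 5 members changed more in DSK2 RNAi and 13 less (3.3% and 8.7%, against 4.02% and 5.17% of genes tested). PHO1 changed more in DSK2 RNAi by 3.18 ± 0.62 (SE, limma adjusted p = 0.00132), with 101 and 112 RPM in starved DSK2 RNAi leaves and 16.5 and 3.79 RPM in starved bes1-D leaves. MAPKKK17 changed less in DSK2 RNAi, by -3.67 ± 0.53 (adjusted p = 2.56e-05), with 14.2 and 10.1 RPM in starved DSK2 RNAi leaves and 85.1 and 128 RPM in starved bes1-D leaves. A fit of these 10 libraries alone gave 42 more and 5 less. Without starved bes1-D replicate 2 the counts were 2 more and 7 less, without starved bes1-D replicate 1 they were 15 and 12, and without starved DSK2 RNAi replicate 1 and replicate 2 they were 3 and 12, and 7 and 7.

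Between DSK2 RNAi and bri1-301, 24 members changed more in DSK2 RNAi and 0 less (16.0% and 0%, against 2.37% and 1.07%). At an unadjusted p under 0.05 limma gave 47 more and 0 less, and edgeR and DESeq2 on recovered reads gave 10 and 12 more and 0 less. ABCG31 differed by 3.88 ± 0.59 (SE, limma adjusted p = 7.71e-05), with 85.9 and 78.3 RPM in starved DSK2 RNAi leaves and 2.60 and 8.85 RPM in starved bri1-301 leaves. Without starved bri1-301 replicate 2 the count was 104, and without starved DSK2 RNAi replicate 1 it was 12.

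Between bes1-D and bri1-301, 31 members changed more in bes1-D and 0 less (20.7% and 0%, against 7.64% and 4.51%). At an unadjusted p under 0.05 limma gave 36 more and 3 less, edgeR on recovered reads gave 16 more and 1 less, and DESeq2 gave 21 more and 1 less. AT1G29100 differed by 4.28 ± 0.36 (SE, limma adjusted p = 3.07e-10), with 11.6 and 19.8 RPM in starved bes1-D leaves and 0.506 and 0.114 RPM in starved bri1-301 leaves. AT4G34320 differed by 4.03 ± 0.39 (adjusted p = 6.28e-09). Without starved bri1-301 replicate 1, 43 members changed less in bes1-D, so the count of those that changed less depended on which starved bri1-301 library was used.

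Starved bes1-D and bri1-301 leaves, lines of opposite brassinosteroid signalling, were also compared directly. In bes1-D 37 members were higher (24.7%, against 15.9% of genes tested) and 14 lower (9.3%, against 37%). The background depended on the scaling: with median-of-ratios scaling, which moved the median over all genes to 0.03, against -0.39 as reported, 27.6% of genes tested were higher and 22.6% lower, and 46 members were higher and 5 lower. Of the 37, 32 were shorter members. AT1G29100 (4.32 ± 0.28 SE, limma adjusted p = 1.96e-13) and AT4G34320 (6.44 and 13.2 RPM in bes1-D, against 0.371 and 0.152 RPM in bri1-301; 3.69 ± 0.30, adjusted p = 4.85e-11) were higher by most. SEX1 (3.71 and 1.98 RPM, against 4.32 and 49.5 RPM; -2.26 ± 0.71, adjusted p = 0.00906) and PHO1 (16.5 and 3.79 RPM, against 22.0 and 59.5 RPM; -2.11 ± 0.48, adjusted p = 0.000674) were lower by most. The groups did not overlap in either gene, but the 2 bri1-301 libraries lay far apart. In the 4 libraries alone no gene of any kind passed in either direction. Removing the length trend left 70 higher and 4 lower, and of genes tested 20.6% higher and 26.9% lower. The number lower was 82 without bri1-301 replicate 1, 1 without bes1-D replicate 2 and 32 and 35 by edgeR and DESeq2 on recovered reads.

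Dehydration moved few genes of any kind in DSK2 RNAi, bes1-D and bri1-301, members included. In DSK2 RNAi 1 member rose (0.7%, against 2.25% of genes tested) and 0 fell (against 1.57%). It was MTPA2, a zinc transporter of the vacuole, with 2.69, 3.17 and 1.46 RPM in dehydrated leaves, against 1.16, 0.857 and 0.509 RPM in controls (1.11 ± 0.31 SE, limma adjusted p = 0.0414, and 0.0211 to 0.212 over 16 alternatives, 11 of which lost the call). In bes1-D 0 members rose or fell by limma, edgeR or DESeq2 (against 0.399% and 0.777% of genes tested), and at an unadjusted p under 0.05 4 were higher and 0 lower. In bri1-301 2 rose and 0 fell (1.3% and 0%, against 0.434% and 0.363%). They were NAC074, a transcription factor of the NAC family (1.12, 1.25 and 1.26 RPM in dehydrated leaves, against 0.102, 0.102 and 0.717 RPM in controls; 1.17 ± 0.29, adjusted p = 0.0478), and AT3G62730, annotated as a desiccation-like protein (0.544, 0.508 and 0.614 RPM, against 0.0678, 0.136 and 0.171 RPM; 0.76 ± 0.17, adjusted p = 0.0254). Both calls were lost when any 1 of the 6 libraries other than control replicate 3 was left out. In atg7-2 and WT, whose controls chose the members, the median change of the members under dehydration was 0.30 and -0.04.

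Dehydrated leaves were not used to choose the members, and there atg7-2 stood above WT in some of them. Of 150 members 19 were higher (12.7%, against 6.24% of genes tested) and 0 lower (against 3.18%), and 16 of the 19 were shorter members. Only 101, 102 and 94 of the 150 members reached 1 RPM in the 3 dehydrated WT libraries, and genes so low in WT can hardly be called lower. The lack of lower members, here and in the other lines against WT, is therefore in part set by the choice. The share among genes at 5 RPM in both starved atg7-2 libraries was not computed for this comparison. With median-of-ratios scaling 19 were again higher and 0 lower, and 5.24% of genes tested were higher and 5.14% lower. At an unadjusted p under 0.05 limma gave 34 higher and 2 lower, and DESeq2 on recovered reads gave 23 and 1. PS2 had 9.70, 4.51 and 6.59 RPM in dehydrated atg7-2 leaves, against 1.72, 1.46 and 0.956 RPM in dehydrated WT leaves (log2 difference 1.94 ± 0.32 SE, limma adjusted p = 0.00047). AO1, an aldehyde oxidase, had 18.5, 27.5 and 13.8 RPM, against 9.25, 8.38 and 1.26 RPM (1.88 ± 0.55, adjusted p = 0.0294). The groups did not overlap in either gene. PYL3 was among the 19, with 1.05, 0.407 and 0.747 RPM in dehydrated atg7-2 leaves and 0.0344, 0 and 0.0341 RPM in dehydrated WT leaves, and so were LOX1, MC9, ABCG30, AT3G53040, AT1G29100, AT1G27110, AT2G29620 and CYP709B2. All 19 were also higher in atg7-2 than in WT controls in mean log2(RPM + 0.5), by 0.06 in ABCG30 to 1.56 in AT1G70680. This control difference was 0.93 in PS2, 1.07 in LOX1 and 1.14 in AO1, with a median of 0.23 over all members. Whether the difference in dehydrated leaves exceeds that in controls was not tested. Without dehydrated WT replicate 3, the library with the slope of -0.568, all 19 were still higher and 12 of the 19 still passed. Without the length trend 17 of the 19 passed. In a fit of the 6 libraries alone 2 members passed (of all genes tested, 41 were higher and 4 lower), and without dehydrated atg7-2 replicate 1 the count was 12.

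**Figure D5:**
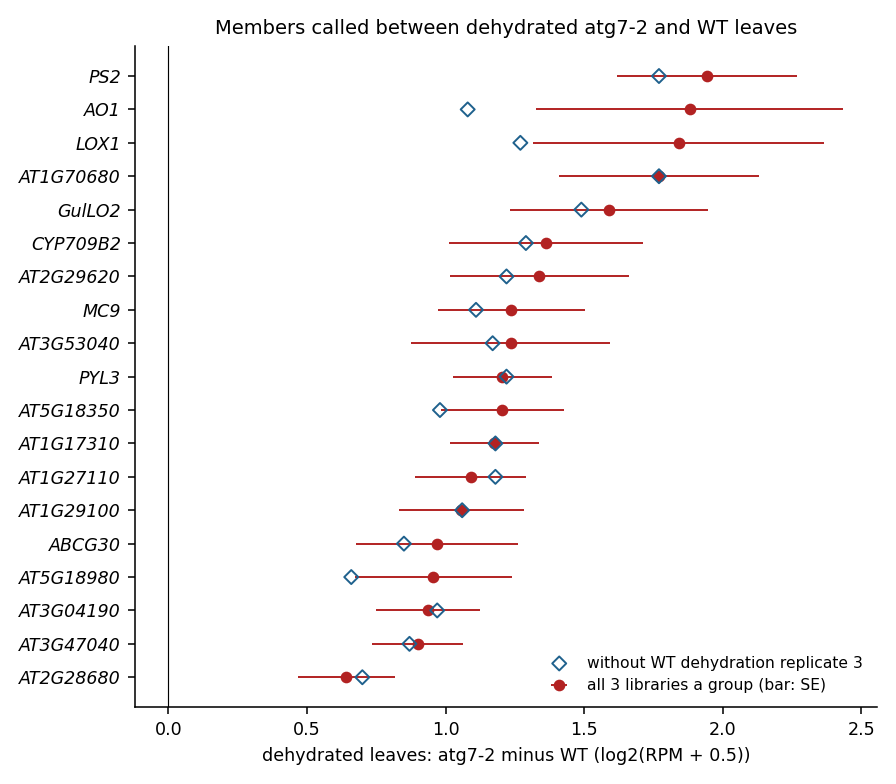
Difference between dehydrated atg7-2 and WT leaves, in log2(RPM + 0.5), for the 19 members that passed, with all 3 libraries a group (red, bar: SE) and without dehydrated WT replicate 3 (blue diamonds). All 19 lie right of zero in both, and AO1 and LOX1 shift most, to 1.08 and 1.27.

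Against WT in dehydrated leaves, fewer members passed in the other lines. DSK2 RNAi had 0 members higher or lower by limma and by edgeR (against 0.222% and 0.0605% of genes tested), 25 higher and 2 lower at an unadjusted p under 0.05, and 2 lower by DESeq2. Without dehydrated WT replicate 1, 5 were higher. In bes1-D 0 were higher and 1 lower (against 4.97% and 4.34%), namely MTPA2, with 0.311, 0.384 and 0.138 RPM in dehydrated bes1-D leaves, against 1.55, 1.57 and 1.54 RPM in dehydrated WT leaves (-1.41 ± 0.31 SE, limma adjusted p = 0.00276). With the replicate number as a block 2 were lower, and with the length trend removed 7, where 7.11% of genes tested were lower. In bri1-301 1 was higher and 1 lower (against 0.489% and 0.626%). ABCG30 was higher (1.60, 1.76 and 1.19 RPM, against 0.722, 0.306 and 0.273 RPM; 1.13 ± 0.29, adjusted p = 0.0474) and AGP14 lower (2.08, 1.36 and 1.74 RPM, against 3.34, 3.61 and 4.51 RPM; -0.96 ± 0.25, adjusted p = 0.0493). Each was lost in most alternatives, 12 and 13 of 16. The median difference of all members from WT was 0.55 in atg7-2, 0.75 in DSK2 RNAi, 0.01 in bes1-D and 0.75 in bri1-301, and with the length trend removed it was 0.13, -0.06, -0.04 and 0.04. Whether atg7-2 differs from the other 3 mutants in dehydrated leaves was not tested.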

How the data were processed

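Leaf RNA-seq libraries (40 of 64 in the labels; the 24 of 4 wrky genotypes are not analysed here) were sequenced as 50 bp single-end reads, per the labels' protocols. The submitters' processing notes name TAIR10, GSNAP and DESeq2, with no version. The deposited table holds a signal per gene that the authors call RPM. Column sums ran from 985308 to 1023136, and whole reads were recovered for 100.0% of values within 0.01 reads, giving 26634819 to 30375860 reads a library. Of 33366 lines 4591 name no gene and were left out. All 279 organelle genes were at 0. Replicates differed beyond sampling noise (lowest chi-square per degree of freedom 14.1). Near-identical gene copies may share reads.

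The test was limma-trend (limma 3.58.1, R 4.3.3) on log2(RPM + 0.5), 40 libraries by group, 25 residual degrees of freedom, Benjamini-Hochberg adjustment over 19824 genes, 14 comparisons, 3 of them added after the data were seen. edgeR 4.0.16 and DESeq2 1.42.0 were run on recovered counts as alternatives to the deposited values. Other alternatives were the pseudocount, the filter, median-of-ratios scaling, removal of a cubic length trend per library, a fit of the compared libraries alone, a replicate block and leaving out each library. The limma fit was also run on simulated counts for some of the comparisons. Those counts had no length trend, so the run does not bear on the length slopes. Transcript lengths, promoters and names come from RefSeq TAIR10.1, which matched 28009 of 28775 gene IDs.

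The genes named are the 15 with the highest D, members of the gene lists, the 2 largest called rises and falls of each comparison, the 3 members with the highest RPM in starved atg7-2 leaves and the targeted genes. Other names, and the grouping by role, were chosen after values were seen. The members and lists were chosen with earlier results of these data known.

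Replicate numbers were checked for pairing by correlating the deviations of same-numbered libraries from their group means. Every pair exceeded 0.1 in 3 of 11 comparisons: dehydration against control in bes1-D (0.27, 0.16 and 0.26) and in bri1-301 (0.34, 0.46 and 0.21), and dehydrated bes1-D against WT (0.56, 0.56 and 0.81). The shared replicate numbers in the labels point to pairs. So do the sample numbers, which are consecutive for the control and dehydration libraries of the same genotype and replicate. The main tests were not paired, and the replicate block was run as an alternative.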

Additional observations from a re-analysis of the deposited data

Results flagged for a closer look

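The starvation change of some members differed between lines by a test of the difference itself, in comparisons added after the data were seen. Between DSK2 RNAi and bes1-D 18 members passed (limma, Benjamini-Hochberg). Of the members 3.3% changed more in DSK2 RNAi and 8.7% less, against 4.02% and 5.17% of genes tested. PHO1 changed more in DSK2 RNAi by 3.18 and HMA5 by 2.47 on the log2 scale, and MAPKKK17 (-3.67) and AT1G29100 (-2.41) changed less. HMA5 had 20.0 and 17.2 RPM in starved DSK2 RNAi leaves and 2.50 and 1.81 RPM in starved bes1-D leaves.

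Between DSK2 RNAi and bri1-301 24 members passed, all of which changed more in DSK2 RNAi (16% of members, against 2.37% of genes tested). ABCG31 differed by 3.88 and AT1G27110 by 3.33. AT1G27110 had 5.80 and 5.20 RPM in starved DSK2 RNAi leaves and 0.338 and 0.266 RPM in starved bri1-301 leaves. Between bes1-D and bri1-301 31 members passed, all of which changed more in bes1-D (20.7% of members, against 7.64% of genes tested). AT1G29100 differed by 4.28 and AT4G34320 by 4.03.

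The length slopes of the starved libraries were 0.181 and 0.347 in DSK2 RNAi and -0.506 and -0.929 in bes1-D. In bri1-301 they were -0.439 and 0.437, opposite within the line. Their part in the differences was not tested.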

How the results depend on the processing

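Of 482 settings over 28 counts of members, 361 stayed within 1.5 times the reported count. The 32 calls named kept their direction and threshold in 461 of 528 settings, 18 of them in every setting run. With 2 or 3 libraries a group, and starved libraries whose length slopes differ, small counts of members depend on single libraries. The cause of each shift below was not tested. Median-of-ratios scaling moved the median over all genes by -0.31 to 0.42 on the log2 scale, by over 0.1 in 9 of the 14 comparisons. Of genes tested, 1.66% were then higher and 2.32% lower under dehydration in DSK2 RNAi, 0.177% and 1.12% in bes1-D, and 0.484% and 0.257% in bri1-301. Against WT in dehydrated leaves 0.0858% were higher and 0.121% lower in DSK2 RNAi, and 0.393% and 0.792% in bri1-301.

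With the length trend removed, 76 of the 150 members remained by the rule, and 127 to 140 remained when a library was left out. Under starvation, the members higher in DSK2 RNAi (67 reported) were 119 with the length trend removed, 103 by DESeq2 and 112 in the compared libraries alone. In bes1-D, 100 were higher with the length trend removed (48 reported), and the lower ones (15 reported) were 9 with the length trend removed, 32 with the replicate block and 27 in the compared libraries alone. In bri1-301 the higher ones (25 reported) were 65 with the length trend removed, 38 by edgeR and 40 by DESeq2. Of genes tested, 36.8% in DSK2 RNAi, 35.8% in bes1-D and 34.7% in bri1-301 were higher with the length trend removed. Leaving out 1 library gave 52 to 68 higher and 8 lower in DSK2 RNAi, 44 to 49 higher and 9 to 18 lower in bes1-D, and 21 to 61 higher and 9 to 73 lower in bri1-301.

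Under dehydration, the members higher in DSK2 RNAi (1 reported) were 0 with a pseudocount of 0.1, without a filter, with median-of-ratios scaling and by edgeR, and 2 in the compared libraries alone. DESeq2 gave 1 lower. In bri1-301 (2 reported) 1 was higher without a filter, by edgeR and in the compared libraries alone. Leaving out 1 library gave 0 to 1 higher and 0 lower in DSK2 RNAi, 0 higher and 0 lower in bes1-D, and 0 to 2 higher and 0 to 1 lower in bri1-301.

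In dehydrated leaves against WT, atg7-2 had 2 members higher in the compared libraries alone (19 reported) and 1 lower with the length trend removed and by DESeq2. DSK2 RNAi had 1 higher with a pseudocount of 1 and with the replicate block, and 2 lower by DESeq2 (0 reported). The lower members of bes1-D (1 reported) were 3 with a pseudocount of 0.1, 2 without a filter, 2 with median-of-ratios scaling, 7 with the length trend removed, 2 with the replicate block, 5 by edgeR, 6 by DESeq2 and 2 in the compared libraries alone. In bri1-301 the higher member was lost (0) with a pseudocount of 1, and the lower one (0) with a pseudocount of 0.1. Both were lost (0) without a filter, with a filter of 5 RPM, with median-of-ratios scaling, with the length trend removed, by edgeR and in the compared libraries alone, and DESeq2 gave 2 higher. Leaving out 1 library gave 12 to 22 higher and 0 lower for atg7-2, 0 to 5 higher and 0 lower for DSK2 RNAi, 0 higher and 1 to 4 lower for bes1-D, and 0 to 1 higher and 0 lower for bri1-301.

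For starved bes1-D against bri1-301, 70 were higher with the length trend removed and 0 in the compared libraries alone (37 reported). The lower ones (14 reported) were 9 without a filter, 5 with median-of-ratios scaling, 4 with the length trend removed, 29 with the replicate block, 32 by edgeR, 35 by DESeq2 and 0 in the compared libraries alone. Same-numbered libraries correlated at -0.55. With 2 libraries a group the deviations mirror each other, so both pairs must give the same value and are not separate evidence. The crossed replicate block gave 37 higher and 20 lower. Leaving out 1 library gave 31 to 37 higher and 1 to 82 lower.

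For the starvation change in DSK2 RNAi minus bes1-D, the higher members (5 reported) were 9 with a pseudocount of 1, 10 with the replicate block, 10 by DESeq2 and 42 in the compared libraries alone. The lower ones (13 reported) were 5 with a pseudocount of 0.1, 6 by edgeR, 8 by DESeq2 and 5 in the compared libraries alone. In DSK2 RNAi minus bri1-301, the higher ones (24 reported) were 15 with a pseudocount of 0.1, 10 by edgeR, 12 by DESeq2 and 6 in the compared libraries alone. In bes1-D minus bri1-301, 16 were higher by edgeR (31 reported), and the lower ones (0 reported) were 1 with median-of-ratios scaling, 2 with the length trend removed, 1 by edgeR and 1 by DESeq2. Leaving out 1 library gave 2 to 15 higher and 7 to 13 lower, 12 to 104 higher and 0 lower, and 27 to 32 higher and 0 to 43 lower in these 3 comparisons.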

Other observations

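Chromosome 3 held 40 of the 150 members (26.7%), and 19.7% of genes tested. Chromosome 5 held 18.0% of members and 23.1% of genes tested. No test was made of these shares.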
